A study of Mus musculus with 60 samples.

Results

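The comparison described here is the interaction of GFP fraction with colon part, that is, the difference between GFP-high and GFP-negative cells of the distal colon minus the same difference in the proximal colon. It draws on 16 of the 60 libraries of the series, 4 in each of 4 groups, and was computed for all 23360 genes that passed a filter on low counts. PolyA RNA was sequenced from sorted gut epithelium. The mice were 8 weeks old, and all groups share the Lgr5-2A-eGFP allele, by which eGFP is made together with the receptor Lgr5. Crypts were released by chelation and digested to single cells, and at least 30000 cells per colon fraction were sorted by their GFP signal. The 4 groups are distal colon GFP-high, distal colon GFP-negative, proximal colon GFP-high and proximal colon GFP-negative, and the 8 GFP-intermediate libraries of the colon served to place a difference along the sort. Strain, sex and the number of animals per library are not given in the sources used here. No label says that replicates came from separate animals, so the p-values measure spread between libraries and not between animals. That spread was estimated over all 60 libraries of the series, those of the small intestine included, and not from the 16 alone.

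Lgr5 is a receptor for R-spondins, secreted proteins that strengthen Wnt signalling, and it marks the stem cells at the base of intestinal crypts. Sorting by Lgr5 reporter signal therefore sets cells of the crypt base against a mixture of differentiated cells, which in the colon holds absorptive colonocytes, mucus-making goblet cells, hormone-secreting enteroendocrine cells and chemosensory tuft cells. Tuft cells use a taste-like signalling cascade and make eicosanoids and acetylcholine, and enteroendocrine cells release amines and peptides such as serotonin and substance P. The proximal and the distal colon differ in development, microbiota and transport, and the interaction asks which genes separate the fractions differently in the 2 parts.

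The 16 libraries held 71575254 to 113917959 counts each. Lgr5 itself followed the sort, with 145 to 231 CPM (counts scaled to library size) in distal GFP-high, 4.37 to 8.46 CPM in distal GFP-negative, 202 to 334 CPM in proximal GFP-high and 9.32 to 17.4 CPM in proximal GFP-negative libraries. Epcam, an epithelial adhesion molecule, lay between 1209 and 1890 CPM in all 16. Some libraries stood apart. The proximal GFP-negative library of replicate 3 had the highest summed level of 29 leukocyte genes (1958 CPM, against 231 to 669 CPM in the other proximal GFP-negative libraries) and of 32 enteroendocrine genes (12832 CPM, against 5015 to 6674 CPM). The GFP-negative libraries of replicate 4 of both parts lay at 38.0 and 38.6 on the third principal component of the colon libraries, where all others lay between -21.3 and 14.95. The colon libraries of replicate 1 had 156 to 487 CPM of the X-inactivation transcript Xist beside 40.1 to 46.4 CPM of Y-linked Ddx3y, whereas Xist stayed at or below 1.498 CPM in the others. Replicate 1 therefore differed from the other numbers in sex-linked RNA, in every colon group. Because these are bulk samples, fewer cells of a type and less RNA per cell cannot be told apart in any value below.

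The interaction passed the test in 144 of the 23360 genes (0.616%, edgeR quasi-likelihood F test, Benjamini-Hochberg adjusted p below 0.05). In 84 genes (0.36%) it was higher, meaning that GFP-high minus GFP-negative was more positive in the distal colon, and in 60 (0.257%) it was lower. The difference between fractions taken alone passed the test in far more genes, 5875 in the distal colon (25.1%) and 5912 in the proximal colon (25.3%). At an unadjusted p below 0.05, 1935 genes had an interaction, 1095 of them higher, and the median over all genes was -0.0024 on the log2 scale. Of the 144 genes, 123 code for proteins, 70 averaged at least 10 CPM in the highest of the 4 groups, and 25 stayed below 1 CPM in all 4.

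Leaving out 1 library at a time left between 34 and 103 genes with a higher and between 46 and 68 with a lower interaction. The first count fell to 34 without the proximal GFP-negative library of replicate 3, to 44 and 53 without the distal GFP-negative libraries of replicates 2 and 3, and to 48 without the proximal GFP-high library of replicate 1. Without the GFP-negative libraries of replicate 4 of both parts it was 75, beside 57 genes with a lower interaction. All 144 genes kept their sign in each of the 29 alternatives that tested them. The alternatives reuse all or most of the libraries that gave the calls, which favours a kept sign. The one with a fold of at least 2 reuses the main fit, so its signs could not differ. Of the 84 genes 21, and of the 60 genes 36, were called in each of the 16 fits without 1 library. A fit of only the 4 groups compared called 52 genes, 41 of them among the 144, and a fit of the 6 colon groups called 134, 86 of them among the 144.

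Among the 84 genes with a higher interaction, 62 had their highest mean in proximal GFP-negative cells, and the most frequent pattern (37 genes) was a fall in proximal GFP-high cells with no call in the distal colon. Another 22 of them rose in distal GFP-high cells with no call in the proximal colon. Among the 60 with a lower interaction, 28 had their highest mean in distal GFP-negative and 24 in proximal GFP-high cells, and 40 fell in distal GFP-high cells with no call in the proximal colon. The distal and the proximal colon differed in the GFP-high fraction alone for 19 of the 84 and 39 of the 60, and in the GFP-negative fraction alone for 49 of the 84 and 8 of the 60. Over all genes, the parts differed in 7.8% for the GFP-high and in 13.6% for the GFP-negative fraction. These shares include genes that differed in both fractions, so they cannot be compared with the counts for a fraction alone. The share that differed in a fraction alone was not computed over all genes. The interaction also equals the difference between parts in GFP-high cells minus that in GFP-negative cells. Selection for an interaction therefore favours a call in either fraction. The patterns and counts of the called genes are overlaps of calls, so a part without a call is not shown to lack a difference. Shares of the highest groups and of the patterns over all genes were not computed. Selection for a higher interaction itself favours a high mean in distal GFP-high or proximal GFP-negative cells. For a lower interaction it favours the other 2 groups. In 19 genes both fraction differences passed the test with opposite signs, 9 with a higher and 10 with a lower interaction. This count was 11 without the distal GFP-negative library of replicate 3, and 12 without that of replicate 2 or without the proximal GFP-negative library of replicate 3.

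**Figure D1:**
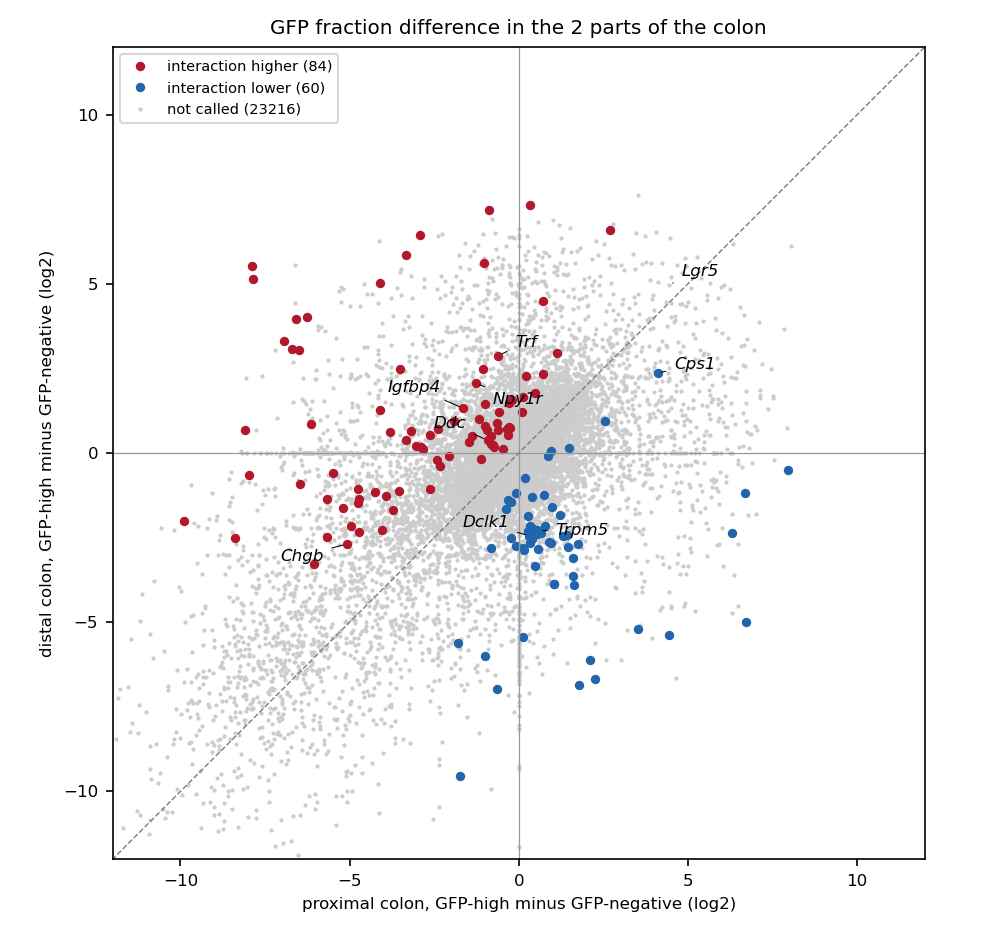
The vertical axis gives the log2 difference of GFP-high minus GFP-negative cells in the distal colon and the horizontal axis the same in the proximal colon, 1 point per gene, with 4 genes beyond the axes. The dashed line marks equal differences. The 84 genes with a higher interaction lie above it and the 60 with a lower one below it, and Trpm5 and Dclk1 sit below 0 on the vertical and above 0 on the horizontal axis.

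The called genes were counted over 24 lists of cell type, pathway and regional genes. The tuft cell list held 15 calls among its 25 tested members, all lower, with a median interaction of -2.81 against -0.0024 over all genes. The enteroendocrine list held 4 calls among 32 members, all higher, with a median of 1.47. The other lists held between 0 and 3 calls each. None of 29 crypt base stem cell genes and 40 cell cycle genes was called, at medians of -0.09 and -0.12. In distal GFP-high cells 19 and 36 of them rose, beside 11.2% of all genes. In proximal GFP-high cells 23 and 38 of them rose, beside 11.3% of all genes. An unadjusted p below 0.05 was reached by 6 crypt base stem cell genes and 0 cell cycle genes, beside 1935 of all 23360 genes. The DESeq2 Wald test called 1 and 0.

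**Figure D2:**
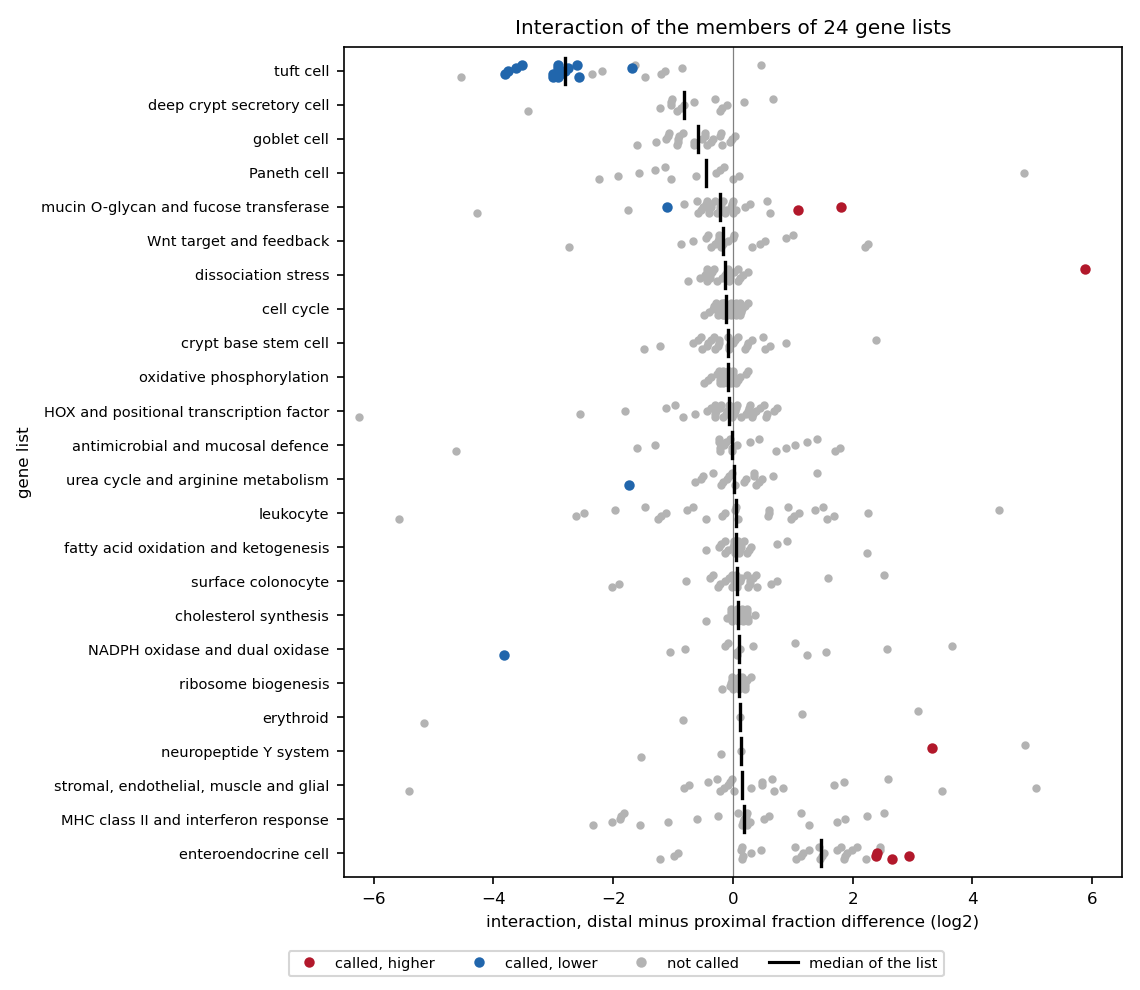
Each point is the interaction (horizontal axis, log2) of 1 member of the list named on the vertical axis, in red or blue where it passed the test, and black bars are medians; 4 members lie beyond the axis. The tuft cell list sits at the top with 15 blue points and a median of -2.81, and the enteroendocrine list at the bottom with 4 red points and a median of 1.47.

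Tuft cell genes were lower in the GFP-high fraction of the distal colon than in its GFP-negative fraction, and fewer of them differed between the fractions of the proximal colon. In the distal colon 20 of the 25 members fell in GFP-high cells and 0 rose, with a median difference of -2.23; over all genes 13.9% fell and 11.2% rose there. In the proximal colon 6 rose and 3 fell, with a median of 0.52, beside 11.3% and 14% of all genes. The summed level of the 25 genes was 97.9 to 131 CPM in distal GFP-high against 390 to 510 CPM in distal GFP-negative libraries, and 359 to 569 CPM in proximal GFP-high against 219 to 344 CPM in proximal GFP-negative libraries. Neither pair of ranges overlaps, and they run in opposite directions. Between parts, 18 members were lower in distal than in proximal GFP-high cells, a call that 4.05% of all genes had. The interaction was negative in 24 of the 25 members, Tas1r3 being the exception (0.46, not called), and 21 had an unadjusted p below 0.05.

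Trpm5, the cation channel at the end of the taste-like cascade, had 13.8, 13.5, 12.6 and 15.6 CPM in distal GFP-high and 75.3, 60.3, 82.3 and 54.8 CPM in distal GFP-negative libraries. In the proximal colon it had 42.8, 51.7, 61.0 and 91.4 CPM in GFP-high and 33.0, 41.8, 48.5 and 40.7 CPM in GFP-negative libraries. The distal fractions did not overlap, the proximal ones did, and every distal GFP-high library lay below every proximal one. Trpm5 fell by 2.29 ± 0.28 (log2, SE) in distal GFP-high cells and differed by 0.59 ± 0.27 in proximal ones (adjusted p = 0.0973), which gave an interaction of -2.88 ± 0.38 (adjusted p = 9.33e-06).

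Dclk1, the kinase most used to mark tuft cells, had 19.998, 17.5, 20.7 and 26.6 CPM in distal GFP-high against 109, 83.8, 132 and 138 CPM in distal GFP-negative libraries. Its proximal levels were 75.6, 81.8, 84.8 and 110 CPM in GFP-high and 40.1, 75.7, 63.2 and 105 CPM in GFP-negative libraries, 2 ranges that overlap widely. The interaction was -2.75 ± 0.41 (adjusted p = 5.3e-05). Computed within each replicate number, as log2(CPM + 0.5), it was -3.32, -2.34, -3.06 and -2.42, below 0 in all 4.

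Sh2d7, an SH2-domain protein, had called fraction differences of opposite sign in the 2 parts. It had 5.83, 5.11, 5.61 and 8.20 CPM in distal GFP-high against 27.6, 28.8, 34.7 and 19.005 CPM in distal GFP-negative libraries, and 19.9, 22.5, 19.5 and 42.0 CPM in proximal GFP-high against 13.2, 19.02, 11.9 and 17.2 CPM in proximal GFP-negative libraries. The fractions of neither part overlap, although in the proximal colon the lowest GFP-high and the highest GFP-negative library lie close together. The proximal GFP-high library of replicate 4 stood far above the rest of its group. Opposite calls over all genes numbered 13 without it, against 19, and the proximal rise of Sh2d7 without it is not given here. Sh2d7 fell by 2.15 ± 0.28 in distal GFP-high cells and rose by 0.76 ± 0.27 in proximal ones (adjusted p = 0.0343), with an interaction of -2.91 ± 0.39 (adjusted p = 9.96e-06).

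Genes of other tuft functions gave interactions below 0 too. Rgs13, a regulator of G protein signalling, gave -2.92 ± 0.41, the actin-binding protein Avil -2.60 ± 0.40, and Sh2d6, another SH2-domain protein, -2.81 (adjusted p = 0.00109). Alox5, the lipoxygenase that starts leukotriene synthesis, averaged 3.38 ± 1.09 CPM in distal GFP-high and 21.5 ± 3.91 CPM in distal GFP-negative cells, against 13.5 ± 3.47 and 10.6 ± 2.41 CPM in proximal GFP-high and GFP-negative cells, with an interaction of -3.01 ± 0.48. Ltc4s and Ptgs1, which make leukotriene C4 and prostaglandin H2, Chat, which makes acetylcholine, Il17rb, a receptor subunit for interleukin 25, Gnat3, a taste G protein subunit, and the short-chain fatty acid receptor Ffar3 were also called, at -3.62, -3.00, -3.75, -2.58, -2.93 and -3.81. The tuft cell transcription factor Pou2f3 had the smallest called interaction of the list (-1.69 ± 0.42, adjusted p = 0.0392), at 4.13 ± 1.28 CPM in distal GFP-high, 10.2 ± 1.62 CPM in distal GFP-negative, 8.52 ± 4.22 CPM in proximal GFP-high and 6.55 ± 1.92 CPM in proximal GFP-negative cells. Members without a call included Siglecf (-0.84), Plcb2 (-1.20) and Alox5ap (-1.13). Without 1 library at a time the list gave 13 to 15 calls. Pou2f3 was called in 7 and Gnat3 in 10 of the 16 such fits, with values from -1.90 to -1.28 and from -3.26 to -2.69. Pou2f3, Ltc4s and Ffar3 were not called in the fit of only the 4 groups (adjusted p = 0.164, 0.0605 and 0.166), where the list gave 12 calls.

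**Figure D3:**
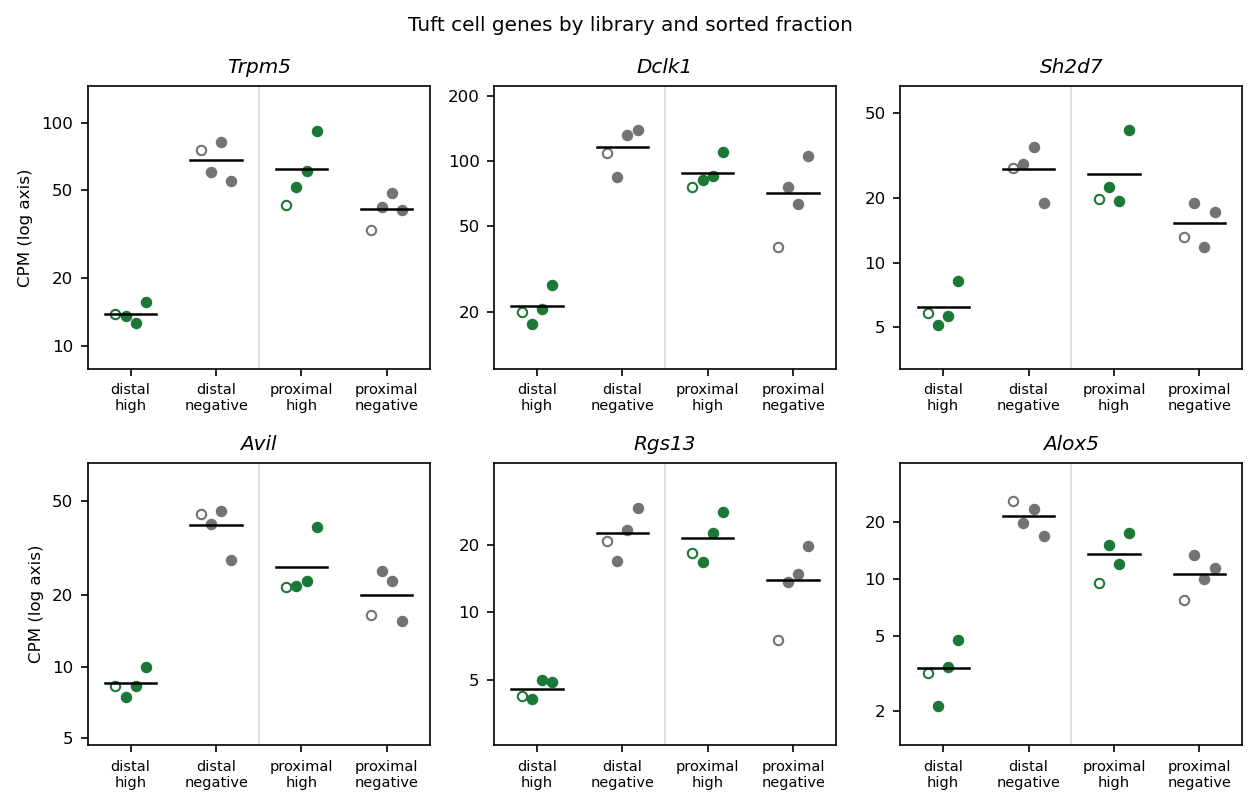
Points are CPM of single libraries on a log axis for 6 tuft cell genes, by colon part and GFP fraction, open circles are libraries of replicate 1 and bars are means of 4. In all 6 genes the distal GFP-high libraries lie below every other library, and the distal GFP-negative, proximal GFP-high and proximal GFP-negative libraries lie above them.

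Along the sort the distal fall lay between the GFP-intermediate and the GFP-negative fraction. Over the tuft list the median interaction was -0.14 for the step from GFP-high to GFP-intermediate cells and -2.53 for the step from GFP-intermediate to GFP-negative cells. In the distal colon Dclk1 averaged 21.2 ± 3.84 CPM (SD, n = 4) at GFP-high, 19.3 ± 3.63 CPM at GFP-intermediate and 116 ± 24.7 CPM at GFP-negative. In the proximal colon the same fractions averaged 87.9 ± 14.99, 72.7 ± 8.06 and 71.1 ± 27.1 CPM. The summed tuft level was 78.1 to 115 CPM in distal and 332 to 402 CPM in proximal GFP-intermediate libraries. Of the 144 called genes, 121 had the larger step between GFP-intermediate and GFP-negative cells. These were 67 of the 84 with a higher and 54 of the 60 with a lower interaction. Both steps had the direction of the interaction in 120 genes, 76 of the 84 and 44 of the 60. The steps add up to the interaction by which these genes were selected, which favours a shared direction. The shares over all genes were not computed. Over all genes the interaction for the step from GFP-intermediate to GFP-negative cells passed the test in 64 (0.274%).

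Since the tuft genes moved together, their promoters were searched for the octamer ATGCAAAT, the binding motif of POU-family factors such as Pou2f3, and for its first 7 letters, on both strands; the motif was chosen after the values were seen. RefSeq windows of 250 bases before to 50 bases after a gene's start (GRCm38.p6) were at hand for 13 of the 15 called tuft genes, as 14 windows. None of the 14 held the octamer, which 1.74% of all 32851 windows held. The 7 letters ATGCAAA or their reverse complement TTTGCAT, which overlap the octamer, were in 2 of the 14, those of Avil and Ffar3, and in 4.63% of all windows. Both are given below, read 5' to 3' along the gene's strand with the matches in capitals, from chr10:127000459-127000758 on the plus strand for Avil and chr7:30856129-30856428 on the minus strand for Ffar3. A match is a description of letters and not evidence of binding.
Avil: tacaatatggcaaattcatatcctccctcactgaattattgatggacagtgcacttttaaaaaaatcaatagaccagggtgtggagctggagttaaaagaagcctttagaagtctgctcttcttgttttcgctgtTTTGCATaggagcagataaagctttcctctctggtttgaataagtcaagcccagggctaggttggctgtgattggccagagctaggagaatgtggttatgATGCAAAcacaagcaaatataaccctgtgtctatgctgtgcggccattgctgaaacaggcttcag
Ffar3: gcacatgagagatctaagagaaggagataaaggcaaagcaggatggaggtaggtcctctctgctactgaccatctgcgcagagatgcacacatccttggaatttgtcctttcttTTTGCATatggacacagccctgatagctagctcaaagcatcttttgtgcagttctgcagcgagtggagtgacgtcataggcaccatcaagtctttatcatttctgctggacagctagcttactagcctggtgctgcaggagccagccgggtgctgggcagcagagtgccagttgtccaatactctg

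Of the called genes outside the tuft list, Matk, Pik3r5 and Spib were lowest in distal GFP-high cells too. Matk, a kinase that restrains Src-family kinases, averaged 1.87 ± 0.16 CPM in distal GFP-high, 13.4 ± 3.20 CPM in distal GFP-negative, 15.8 ± 4.62 CPM in proximal GFP-high and 10.6 ± 3.96 CPM in proximal GFP-negative cells, an interaction of -3.42 ± 0.59 (adjusted p = 0.000516). Pik3r5, a regulatory subunit of phosphoinositide 3-kinase gamma, gave -2.59 ± 0.39 (adjusted p = 5.3e-05) and Spib, an Ets-family transcription factor known from lymphoid and M cells, -3.02 ± 0.51 (adjusted p = 0.000435). In all 3 genes the distal GFP-high libraries lay below every library of the other groups. Rac2 differed from these. This haematopoietic small GTPase that activates the phagocyte NADPH oxidase was the only called member among the 14 tested genes of the oxidase list. It had 0.43, 0.39, 0.48 and 0.56 CPM in distal GFP-high and 14.9, 27.8, 15.6 and 33.8 CPM in distal GFP-negative libraries, and 10.4, 16.6, 9.53 and 18.8 CPM in proximal GFP-high and 41.6, 15.1, 100.2 and 36.1 CPM in proximal GFP-negative libraries. Rac2 fell in GFP-high cells of both parts, by 5.63 ± 0.58 in the distal and by 1.80 ± 0.47 in the proximal colon, and its interaction was -3.82 ± 0.70 (adjusted p = 0.0011). Leukocyte genes were in the GFP-negative libraries too. On that list 27 and 26 of the 29 fell in distal and proximal GFP-high cells, beside 13.9% and 14% of all genes. The sum of the 29 was 10.1 to 14.7 CPM in distal GFP-high and 178 to 456 CPM in distal GFP-negative libraries. In the proximal colon it was 16.7 to 26.5 against 231 to 1958 CPM. The T cell gene Cd3e was at 0 in 3 of the 4 distal GFP-high libraries. None of the 29 had a called interaction, their median was 0.05, 2 had an unadjusted p below 0.05 and the DESeq2 Wald test called 1; their part in the Rac2 result was not tested. Without the proximal GFP-negative library of replicate 3 the Rac2 interaction was -4.46.

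Enteroendocrine genes fell in GFP-high cells of both parts, more of them in the proximal colon, and 4 had a called interaction. In distal GFP-high cells 17 of the 32 members fell, with a median difference of -1.64, and in proximal GFP-high cells 26 fell, with a median of -3.23, beside 13.9% and 14% of all genes. In GFP-negative cells 20 of the 32 were lower in the distal than in the proximal colon, against 7.17% of all genes. Their summed level was 925 to 1208 CPM in distal GFP-high, 1720 to 2878 CPM in distal GFP-negative, 744 to 1796 CPM in proximal GFP-high and 5015 to 12832 CPM in proximal GFP-negative libraries. The interaction was positive in 29 of the 32 and had an unadjusted p below 0.05 in 16, of which Tac1, Slc18a1, Insm1 and Chgb were called. The 4 calls became 2 without the distal GFP-high library of replicate 4, the proximal GFP-high library of replicate 1 or 3, or the proximal GFP-negative library of replicate 3. In the fit of only the 4 groups Slc18a1, Insm1 and Chgb kept their sign and were not called (adjusted p = 0.0643, 0.062 and 0.0523).

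Tac1, the precursor of substance P, differed between fractions in the proximal colon. It had 3.48, 2.92, 5.08 and 4.27 CPM in distal GFP-high and 4.60, 3.32, 2.94 and 3.76 CPM in distal GFP-negative libraries, which overlap, and 2.49, 3.56, 2.47 and 3.57 CPM in proximal GFP-high against 14.8, 13.7, 36.5 and 21.3 CPM in proximal GFP-negative libraries, which do not. The interaction was 2.94 ± 0.46 (adjusted p = 1e-04), and 2.57 without the proximal GFP-negative library of replicate 3. Slc18a1, the transporter that loads monoamines into secretory vesicles, had 2.98, 3.78, 2.69 and 3.496 CPM in distal GFP-high and 9.35, 8.13, 8.29 and 5.73 CPM in distal GFP-negative libraries, against 5.44, 6.30, 0.86 and 6.22 CPM in proximal GFP-high and 52.6, 58.6, 123.7 and 53.5 CPM in proximal GFP-negative libraries. It fell in GFP-high cells of both parts, by 1.28 ± 0.30 and by 3.94 ± 0.33, and the interaction of 2.65 ± 0.43 (adjusted p = 0.000162) was above 0 within each of the 4 replicate numbers.

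Chgb, a protein of hormone granules, showed the same order at 58.2, 40.0, 43.7 and 55.1 CPM in distal GFP-high, 417, 385, 281 and 185 CPM in distal GFP-negative, 75.4, 85.8, 57.8 and 181 CPM in proximal GFP-high and 2706, 2959, 5895 and 1980 CPM in proximal GFP-negative libraries. Its interaction was 2.39 ± 0.57 (adjusted p = 0.028), and 1.99 without the proximal GFP-negative library of replicate 3, where it was not called (adjusted p = 0.147). It was called in 8 of the 16 fits without 1 library. Insm1, a transcription factor of endocrine differentiation, gave 2.41 ± 0.55 (adjusted p = 0.0193) and was not called without that library (2.15, adjusted p = 0.0774), without the proximal GFP-high libraries of replicate 1 (2.23, adjusted p = 0.0642) or 3 (2.21, adjusted p = 0.0579), or without the distal GFP-high library of replicate 4 (2.17, adjusted p = 0.0635). Chga (2.23, adjusted p = 0.0897) and Tph1, the enzyme that starts serotonin synthesis (1.14, adjusted p = 0.621), pointed the same way without passing the test, and so did Scg3 (2.45, adjusted p = 0.0883).

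Outside the list, Myt1, a zinc-finger factor of neural and endocrine cells, averaged 1.74 ± 0.44 CPM in distal GFP-high, 3.89 ± 1.13 CPM in distal GFP-negative, 0.94 ± 0.27 CPM in proximal GFP-high and 18.0 ± 8.52 CPM in proximal GFP-negative cells, with an interaction of 3.10 ± 0.56 (adjusted p = 0.00102). Genes concentrated in proximal GFP-negative cells also gave the largest values above 10 CPM. Glp1r, the receptor of glucagon-like peptide 1, averaged 23.0 ± 14.7 CPM there and 0.58 ± 0.38, 0.89 ± 0.70 and 0.51 ± 0.49 CPM in distal GFP-high, distal GFP-negative and proximal GFP-high cells, an interaction of 4.89 ± 1.03 (adjusted p = 0.00809). The synaptic protein gene Prrt1 (5.57 ± 1.13), the Golgi mannosidase gene Man1c1 (4.43 ± 0.93), Ambp, which encodes a plasma protease inhibitor precursor (3.84 ± 0.74), and Serpinf2, the gene of antiplasmin (3.39 ± 0.78), had the same highest group. In all 5 the highest library was the proximal GFP-negative one of replicate 3, which for Ambp stood at 54.3 CPM against 9.58 to 28.8 CPM in the other proximal GFP-negative libraries. Without that library the interactions of Glp1r, Prrt1, Man1c1 and Ambp were 4.33, 4.90, 3.95 and 3.34 and still called, and that of Serpinf2 was 2.92 and not called (adjusted p = 0.0862). Serpinf2 was also not called without the distal GFP-high library of replicate 1 (2.89, adjusted p = 0.101). Srgn, the proteoglycan gene of leukocyte granules, passed narrowly (3.21 ± 0.82, adjusted p = 0.0485) and gave 2.46 without the same library (adjusted p = 0.258), and was called in 4 of the 16 fits without 1 library. In the fit of only the 4 groups Glp1r, Serpinf2 and Srgn were not called (adjusted p = 0.132, 0.368 and 0.351), and Serpinf2 and Srgn were not called in that of the 6 colon groups either.

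**Figure D4:**
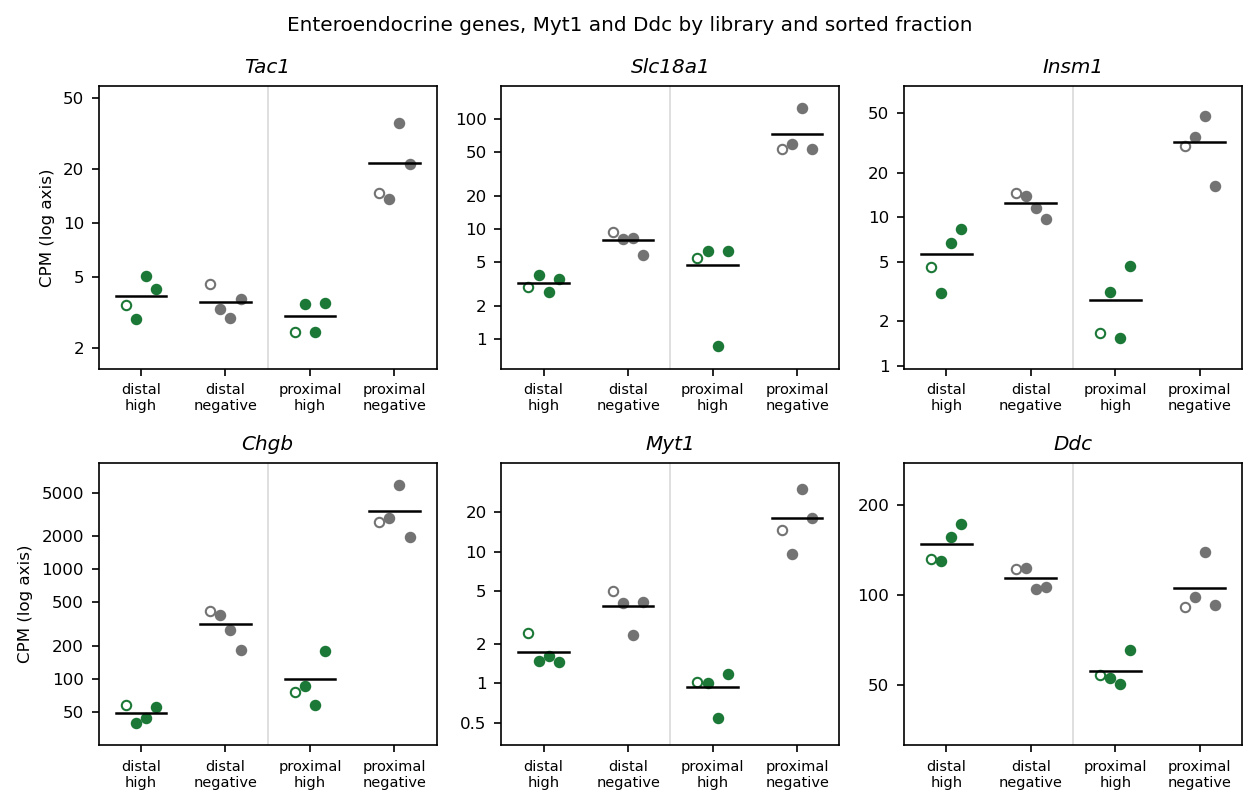
Points are CPM of single libraries on a log axis for Tac1, Slc18a1, Insm1, Chgb, Myt1 and Ddc, by colon part and GFP fraction, open circles are libraries of replicate 1 and bars are means of 4. In the first 5 genes the proximal GFP-negative libraries lie highest, and Ddc is higher in distal GFP-high than in distal GFP-negative libraries and lower in proximal GFP-high than in proximal GFP-negative ones.

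A smaller group was higher in GFP-high cells of the distal colon. Trf, which encodes the iron carrier transferrin, had 206, 209, 348 and 262 CPM in distal GFP-high, 22.4, 43.9, 35.9 and 37.1 CPM in distal GFP-negative, 1.81, 1.83, 5.11 and 2.28 CPM in proximal GFP-high and 2.18, 0.78, 8.86 and 4.89 CPM in proximal GFP-negative libraries. Both distal groups lay above both proximal groups, the distal fractions did not overlap and the proximal ones did. Trf rose by 2.88 ± 0.46 in distal GFP-high cells and differed by -0.61 ± 0.45 in proximal ones (adjusted p = 0.354), with an interaction of 3.49 ± 0.64 (adjusted p = 0.00104) that was above 0 in all 4 replicate numbers.

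Npy1r, a receptor of neuropeptide Y, was the only called one of the 5 tested among 9 listed genes of that system. It had 75.9, 51.0, 81.7 and 80.8 CPM in distal GFP-high and 15.7, 17.8, 15.9 and 20.03 CPM in distal GFP-negative libraries. In the proximal colon it had 2.81, 2.34, 7.03 and 6.31 CPM in GFP-high and 7.89, 7.58, 19.96 and 9.17 CPM in GFP-negative libraries. GFP-high lay above GFP-negative in every distal library and below it in every proximal one. It rose by 2.06 ± 0.51 in distal GFP-high cells and differed by -1.27 ± 0.50 in proximal ones (adjusted p = 0.0576). The interaction was 3.33 ± 0.72 (adjusted p = 0.0103), and it was not called without the proximal GFP-negative library of replicate 3 (2.89, adjusted p = 0.0514). GFP-intermediate cells averaged 41.0 ± 4.64 CPM in the distal and 2.81 ± 1.37 CPM in the proximal colon.

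Rdx, the gene of the membrane-to-actin linker radixin, had 43.4, 51.0, 64.1 and 48.6 CPM in distal GFP-high and 36.5, 45.7, 41.2 and 55.8 CPM in distal GFP-negative libraries, against 0.90, 1.51, 0.93 and 2.68 CPM in proximal GFP-high and 8.17, 5.58, 23.3 and 12.2 CPM in proximal GFP-negative libraries. Distal fractions overlapped, and Rdx fell by 3.02 ± 0.47 in proximal GFP-high cells, giving an interaction of 3.23 ± 0.62 (adjusted p = 0.00234). Slc15a1, the apical di- and tripeptide transporter, fell in GFP-high cells of both parts, by 1.47 ± 0.46 in the distal and by 4.76 ± 0.54 in the proximal colon, an interaction of 3.29 ± 0.68 (adjusted p = 0.00641), which was not called in the fit of only the 4 groups (3.33, adjusted p = 0.0839).

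Cps1, the mitochondrial enzyme that makes carbamoyl phosphate for the urea cycle, was the only called one of 20 genes of arginine and urea metabolism and went the other way. It had 107, 80.7, 145 and 123 CPM in distal GFP-high, 18.6, 22.7, 22.3 and 25.2 CPM in distal GFP-negative, 399, 537, 414 and 229 CPM in proximal GFP-high and 31.2, 31.9, 12.8 and 16.2 CPM in proximal GFP-negative libraries. The GFP-negative groups overlap between parts and the GFP-high groups do not. Cps1 rose by 2.36 ± 0.23 in distal and by 4.10 ± 0.24 in proximal GFP-high cells, and the interaction was -1.74 ± 0.31 (adjusted p = 0.000669). In the fit of only the 4 groups it was -1.72 and not called (adjusted p = 0.103). GFP-intermediate cells lay between, at 52.3 ± 8.43 CPM in the distal and 149 ± 33.6 CPM in the proximal colon.

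**Figure D5:**
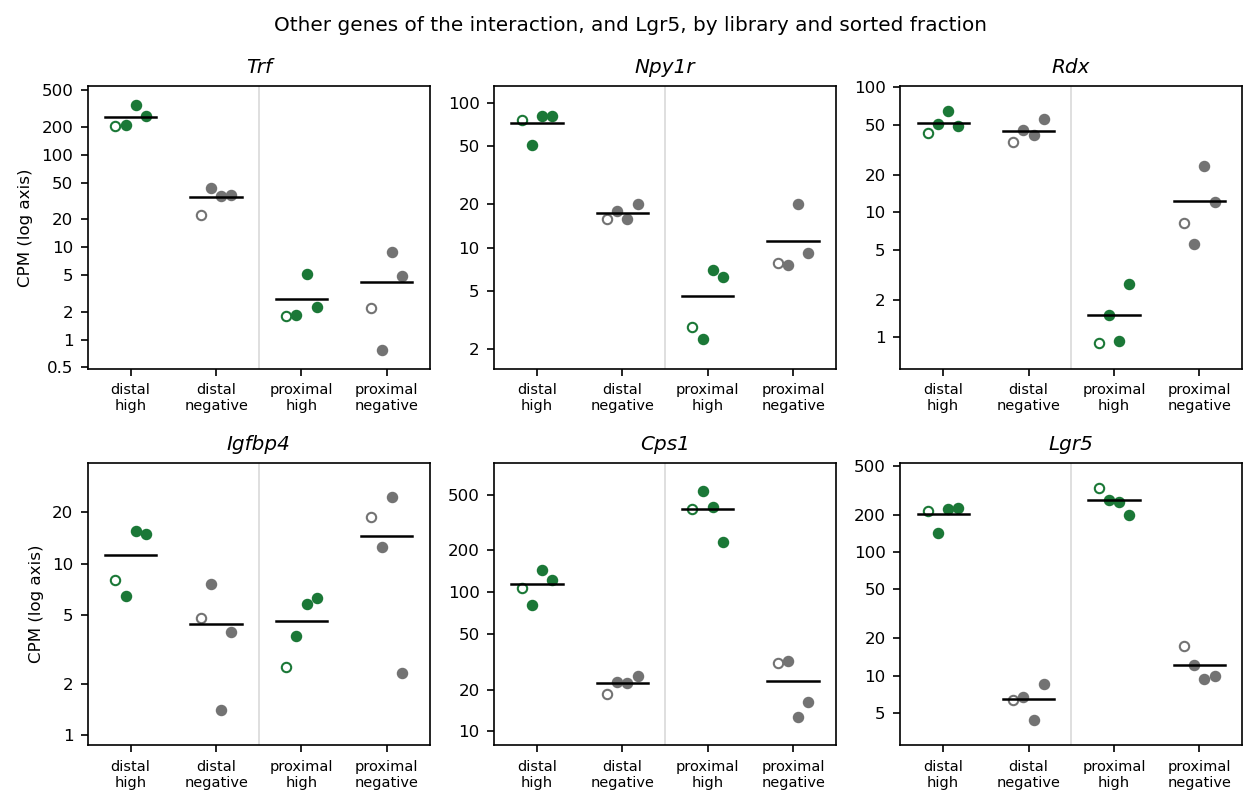
Points are CPM of single libraries on a log axis for Trf, Npy1r, Rdx, Igfbp4, Cps1 and Lgr5, by colon part and GFP fraction, open circles are libraries of replicate 1 and bars are means of 4. Trf and Npy1r are highest in distal GFP-high libraries and Cps1 in proximal GFP-high libraries, and Lgr5 separates the fractions in both parts.

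Of the 19 genes with opposite fraction differences, 8 reached 10 CPM, among them Sh2d7 above and 6 with a higher interaction. Ddc, the decarboxylase that completes the synthesis of serotonin and dopamine, had 132, 130, 157 and 173 CPM in distal GFP-high against 122, 123, 105 and 107 CPM in distal GFP-negative libraries, and 54.1, 52.9, 50.3 and 65.6 CPM in proximal GFP-high against 91.3, 98.2, 139.6 and 92.5 CPM in proximal GFP-negative libraries. Neither pair overlaps. Ddc rose by 0.38 ± 0.14 in distal GFP-high cells (adjusted p = 0.0459) and fell by 0.92 ± 0.14 in proximal ones, with an interaction of 1.30 ± 0.20 (adjusted p = 1e-04). Igfbp4, which binds insulin-like growth factors, averaged 11.2 ± 4.61 CPM in distal GFP-high and 4.48 ± 2.58 CPM in distal GFP-negative cells, against 4.61 ± 1.78 CPM in proximal GFP-high and 14.5 ± 9.44 CPM in proximal GFP-negative cells, with an interaction of 2.97 ± 0.55 (adjusted p = 0.00124). C130074G19Rik (1.55 ± 0.27, adjusted p = 0.000558), the oxysterol-binding protein gene Osbpl3 (1.33 ± 0.27, adjusted p = 0.00563) and the MAP kinase phosphatase gene Dusp4 (1.29 ± 0.32, adjusted p = 0.0381) changed less. Without the proximal GFP-negative library of replicate 3, Osbpl3 gave 1.02 (adjusted p = 0.0514) and Dusp4 1.04 (adjusted p = 0.194); Dusp4 was called in 7 of the 16 fits without 1 library. In the fit of only the 4 groups Igfbp4, C130074G19Rik, Osbpl3 and Dusp4 were not called (adjusted p = 0.186, 0.062, 0.124 and 0.152).

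Of the enzymes that build mucin glycans, 2 had a higher and 1 a lower interaction. Gcnt4, a branching acetylglucosaminyltransferase, was another of the 8, at 6.44, 3.67, 8.19 and 6.07 CPM in distal GFP-high, 2.23, 4.95, 3.95 and 2.80 CPM in distal GFP-negative, 7.50, 10.96, 4.08 and 6.66 CPM in proximal GFP-high and 14.7, 16.2, 10.2 and 17.6 CPM in proximal GFP-negative libraries. Each pair of fractions overlaps through 1 GFP-high library, and the interaction was 1.81 ± 0.33 (adjusted p = 0.000968). B4galnt3, which adds N-acetylgalactosamine to glycan ends, averaged 190 ± 34.0 CPM in distal GFP-high and 110 ± 19.7 CPM in distal GFP-negative cells, against 14.9 ± 2.84 and 18.4 ± 2.26 CPM in proximal GFP-high and GFP-negative cells, with an interaction of 1.09 ± 0.26 (adjusted p = 0.0304). Gcnt3, a related branching enzyme of mucin-secreting epithelia, was lower in distal GFP-high (67.9 ± 3.17 CPM) than in distal GFP-negative cells (154 ± 26.8 CPM), at 316 ± 91.7 and 334 ± 101 CPM in proximal GFP-high and GFP-negative cells, an interaction of -1.11 ± 0.28 (adjusted p = 0.0404). B4galnt3 was called in 9 and Gcnt3 in 4 of the 16 fits without 1 library. In the fit of only the 4 groups Gcnt4, B4galnt3 and Gcnt3 were not called (adjusted p = 0.127, 0.062 and 0.281), and Gcnt3 was not called in that of the 6 colon groups either (adjusted p = 0.13). The other 29 of the 32 genes on this list were not called.

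For the markers of the sort and of the main differentiated cells the interaction did not pass the test. Lgr5 gave 0.54 ± 0.38 (adjusted p = 0.862), after rises of 4.97 ± 0.31 in distal and 4.44 ± 0.30 in proximal GFP-high cells. Nox1, the epithelial NADPH oxidase of the colon, averaged 296 ± 55.7 CPM in distal GFP-high and 59.4 ± 7.61 CPM in distal GFP-negative cells and 133 ± 32.3 and 28.2 ± 7.93 CPM in the same fractions of the proximal colon, with an interaction of 0.07 ± 0.72 (adjusted p = 1). Smoc2, a matrix protein gene of crypt base cells, came closest among its list (-0.67 ± 0.19, adjusted p = 0.0998), and the mitotic kinase gene Cdk1 gave -0.48 ± 0.32 (adjusted p = 0.833).

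Goblet cell genes leaned one way without a call. Of 24 members 23 had a negative interaction, the median was -0.58, 8 had an unadjusted p below 0.05 (1935 of the 23360 over all genes), and 0 were called by edgeR or by the DESeq2 Wald test. In GFP-high cells 15 of them fell in the distal and 9 in the proximal colon, beside 13.9% and 14% of all genes. Their summed level was 21429 to 27099 against 43978 to 66041 CPM in distal GFP-high and GFP-negative libraries, which do not overlap, and 15463 to 35928 against 21792 to 43602 CPM in proximal ones, which do. Rep15, an effector of the trafficking GTPase Rab15, had the smallest p of the list, with -1.29 ± 0.38 (adjusted p = 0.119). With the replicate number as a block it was called at -1.35 (adjusted p = 0.0337). Deep crypt secretory cell genes, whose cells support the colonic stem cells, were similar, with 13 of 15 below 0 and a median of -0.82. Of these 15, 7 had an unadjusted p below 0.05 and 0 were called by either tool. Agr2 and Spink4 are on both lists. Surface colonocyte genes had a median of 0.06, 4 with an unadjusted p below 0.05 and 0 called by either tool, and their chloride channel accessory gene Clca4a (2.53 ± 0.74, adjusted p = 0.117) was called with the block (2.41, adjusted p = 0.0417) and in the fit of the 6 colon groups (2.53, adjusted p = 0.0316). In the lists of Wnt feedback, dissociation stress and defence genes the calls were Dkk3, Hspb1 and Lcn2, which averaged at most 1.49, 5.82 and 0.09 CPM in any of the groups. They were called in 12, 13 and 12 of the 16 fits without 1 library, and the value of Dkk3 was 2.74 (adjusted p = 1) without the distal GFP-high library of replicate 4, the one library of its group not at 0.

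The sign of the interaction was the same within each of the 4 replicate numbers for 130 of the 144 genes, 74 of the 84 with a higher and 56 of the 60 with a lower interaction. Each number gives 1 library per group, so these values carry no test. They come from the same libraries that gave the calls, which favours a shared sign among the 144 genes. The share over all genes was not computed. Of the 25 tuft genes 20 were below 0 in all 4 numbers, and of the 32 enteroendocrine genes 20 were above 0 in all 4. Lists without a call leaned one way as well. Below 0 in all 4 numbers were 15 of the 24 goblet cell genes and 10 of the 15 deep crypt secretory cell genes. Of either list 0 were above 0 in all 4, and both lists hold Agr2 and Spink4.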

How the data were processed

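PolyA RNA of GFP-sorted gut epithelium was measured in 60 libraries, 4 in each of 15 groups. The authors deposited whole-number counts per gene and library, made with STAR, Subread featureCounts and edgeR on the mm10 build per the submitters' processing notes, without versions; strandedness and annotation release are not given in the sources used here, so overlapping or near-identical genes may share reads. Of the other deposited columns only the batch number was used, which is the replicate number in all 60 libraries. The labels do not say that it pairs libraries. It was not part of the main test, and served for the block, for leaving out a number and for values within each number. The main test therefore does not account for the correlations given next. Residuals of same-numbered libraries over 8000 genes correlated between -0.737 and 0.884, above 0.1 in 12 of 24 pairs; both parts' libraries of one fraction correlated at 0.314 to 0.565 (GFP-high) and 0.154 to 0.884 (GFP-negative), and values below 0.1 came from pairs across fractions.

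Genes were filtered by edgeR's filterByExpr over the 15 groups (23360 of 55357 kept), scaled by TMM and fitted over all 60 libraries with the quasi-likelihood model of edgeR 4.0.16 (limma 3.58.1, R 4.3.3; 45 residual and 5.43 prior degrees of freedom). Two-sided F tests were adjusted by Benjamini-Hochberg over all genes and called below 0.05. Standard errors are the absolute log2 value over the root of its F statistic, CPM use TMM-scaled sizes, and a prior count of 0.125 enters the log2 values. Depth covers counting error only, since reads carry no molecular identifiers. The procedure was tested on simulated counts drawn independently for each library. That setting lacked the correlation between same-numbered libraries and changed no scarce genes, so it does not cover either.

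Named genes were up to 12 per direction with the largest interaction, and up to 12 with opposite fraction differences, each at 10 CPM or more in the highest group, up to 3 members per list by p, and Lgr5, Nox1 and Npy1r. A selection is printed. Chgb, Pou2f3, Ptgs1, Ltc4s, Chat, Il17rb, Gnat3, Ffar3, Tas1r3, Siglecf, Plcb2, Alox5ap, Chga, Tph1 and Scg3 fall outside the rule and were chosen after their values were seen. The comparison, the lists and the rule were chosen with earlier results of these data known. Alternatives were DESeq2 size factors, no filter, the newer quasi-likelihood form, fits of only the 4 or 6 groups, a fold of at least 2, the replicate block, the Wald test of DESeq2 1.42.0, and libraries left out singly or by number.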

Additional observations from a re-analysis of the deposited data

Results flagged for a closer look

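The 45 called interactions of genes named in the report are differences between the parts of the colon under the same contrast, each tested directly. Among tuft genes and genes lowest in distal GFP-high cells they were -2.88 for Trpm5, -2.75 for Dclk1, -2.91 for Sh2d7, -2.92 for Rgs13, -2.60 for Avil, -3.01 for Alox5, -2.81 for Sh2d6, -3.62 for Ltc4s, -3.00 for Ptgs1, -3.75 for Chat, -2.58 for Il17rb, -2.93 for Gnat3, -3.81 for Ffar3, -1.69 for Pou2f3, -3.42 for Matk, -2.59 for Pik3r5, -3.02 for Spib and -3.82 for Rac2. Cps1 and Gcnt3 gave -1.74 and -1.11. Among genes highest in proximal GFP-negative cells the interaction was 2.94 for Tac1, 2.65 for Slc18a1, 2.41 for Insm1, 2.39 for Chgb, 3.10 for Myt1, 4.89 for Glp1r, 5.57 for Prrt1, 4.43 for Man1c1, 3.84 for Ambp, 3.39 for Serpinf2, 3.29 for Slc15a1, 2.97 for Igfbp4, 1.81 for Gcnt4, 1.33 for Osbpl3 and 3.21 for Srgn. In genes highest in a distal fraction it was 3.49 for Trf, 3.33 for Npy1r, 3.23 for Rdx, 1.30 for Ddc, 1.55 for C130074G19Rik, 1.29 for Dusp4 and 1.09 for B4galnt3. The scarce Dkk3, Hspb1 and Lcn2 gave 7.90, 5.87 and 9.17, fitted values that depend on the prior count because a group of each is at or near 0 counts.

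Single libraries far from the other 3 of their group were found in 22 of the 204 groups of 4 examined over the 51 genes. For independent, normally distributed values the rule flags about 1 in 20 groups. The groups examined reuse the same 16 libraries, so their share cannot be compared with that rate. The proximal GFP-high library of replicate 4 was high in Sh2d7 (42.0 CPM), Avil (38.7 CPM), Pou2f3 (14.8 CPM), Ptgs1 (12.9 CPM) and Spib (32.0 CPM). The proximal GFP-negative library of replicate 3 was high in Slc18a1 (123.7 CPM), Glp1r (45.1 CPM), Serpinf2 (26.4 CPM), Npy1r (19.96 CPM), Ddc (139.6 CPM), Clca4a (164.9 CPM) and Lcn2 (0.23 CPM). That library also had the highest summed leukocyte level of all 16, 1958 CPM; whether this bears on these genes was not tested. The proximal GFP-high library of replicate 3 was low in Slc18a1 (0.86 CPM) and high in Trf (5.11 CPM). Distal GFP-negative libraries stood apart for Smoc2 in replicate 1 (27.4 CPM, low) for Cdk1 (58.2 CPM), Ptgs1 (8.06 CPM) and Ffar3 (3.49 CPM) in replicate 3, all high, and for Hspb1 in replicate 4 (0.45 CPM, low). Among scarce genes, 1 GFP-high library alone was above 0 for Dkk3 in the distal colon (replicate 4, 0.22 CPM) and for Hspb1 and Lcn2 in the proximal colon (replicate 2, 0.0688 and 0.0229 CPM).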

How the results depend on the processing

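Against 84 higher, 60 lower and 19 opposite calls, fitting only the 4 groups gave 19 higher and 33 lower calls (41 of the 144 genes shared), and the DESeq2 Wald test gave 160 and 115 (141 shared), with an adjusted p of NA in 910 genes. The newer quasi-likelihood form gave 41 opposite calls and shared 111 of the 144 genes. With the replicate number as a block there were 95 higher, 80 lower and 22 opposite calls, and 140 of the 144 genes were shared; among the named genes the block changed the calls of Rep15 and Clca4a. Leaving out 1 library gave 34 to 103 higher, 46 to 68 lower and 11 to 21 opposite calls. Leaving out number 1, 3 or 4 in all 4 groups gave 38, 13 and 54 higher and 8, 7 and 10 opposite calls, and number 1 or 3 gave 39 and 37 lower calls. DESeq2 size factors, no filter, the 6 colon groups and a fold of at least 2 gave counts within 1.5 times of these, and shared 143, 125, 86 and 137 of the 144 genes. The cause was not tested.

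Without number 3 in all groups, Myt1 (2.42), Igfbp4 (2.25), Glp1r (4.12), Ambp (3.44), Rdx (2.42), Prrt1 (4.98), Man1c1 (3.98), Slc15a1 (2.97), Npy1r (3.08) and Ltc4s (-3.31) kept their sign and were not called. Insm1, Chgb, Serpinf2, Osbpl3, Srgn, Dusp4, Dkk3, Hspb1 and Lcn2 were not called without number 3 either. Losses were not limited to that number. Npy1r, Chgb and Srgn were also not called without number 1 or 2. Prrt1, Man1c1, Serpinf2, Insm1 and Ltc4s were not called without number 1. Dusp4, Dkk3, Hspb1 and Lcn2 were not called without number 1 or 4. Slc15a1 was not called without number 2 and Ffar3 without number 4. Pou2f3, Gnat3, Gcnt3 and B4galnt3 were not called without any 1 of the 4 numbers. Npy1r was also not called by the DESeq2 Wald test. Fits with 12 libraries hold 3 per group. The tuft list gave 12 to 17 lower calls over all alternatives, against 15, and the enteroendocrine list 2 to 7 higher calls, against 4.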
